A study of Mus musculus with 12 samples.

Results

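The 9 genes that were much higher in miR-155KI than in WT NK1.1- iNKT cells were Sostdc1, Prg4, Pla2g7, Kirrel3, Parm1, Fabp7, Moxd1, Akr1c12 and Lrrc49. These 9 genes, of 48709 in the count table, were selected on their large difference between miR-155KI and WT in the NK1.1- libraries themselves, so every NK1.1- genotype value below is a description with no test. The comparison that the choice did not use, miR-155KI against WT in NK1.1+ cells, was tested. RNA-seq libraries were made from invariant natural killer T (iNKT) cells of the thymus, sorted on TCRβ, a CD1d tetramer, NK1.1 and CD44 after CD8 depletion, from C57BL/6J mice that were 7 weeks old.

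The miR-155KI mice carried CD4Cre and both copies of a Rosa26 miR-155 knock-in allele, and their CD4Cre-negative littermates with the same allele, in which it is not switched on, served as WT. Because the Cd4 promoter drives Cre, the knock-in acts in all cells of the T lineage that have passed the double-positive stage and not in iNKT cells alone. There were 3 libraries in each of 4 groups, miR-155KI NK1.1-, WT NK1.1-, miR-155KI NK1.1+ and WT NK1.1+, with 12819476 to 20518257 counts per library. The study's methods speak of pooled replicates and the labels number separate libraries without naming animals, so the spread between libraries may be technical in part.

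The 9 proteins belong to no shared pathway. Sostdc1 is a secreted antagonist of bone morphogenetic proteins (BMPs) that also tempers Wnt signaling, Prg4 is lubricin, a secreted mucin-like proteoglycan of joint surfaces, and Pla2g7 is the secreted enzyme that inactivates platelet-activating factor. Kirrel3 is a cell adhesion protein of the immunoglobulin superfamily studied at synapses, and Parm1 is a mucin-like transmembrane protein. Fabp7 carries fatty acids inside cells and is best known from radial glia, Moxd1 is a copper-dependent monooxygenase of the secretory pathway, Akr1c12 is an aldo-keto reductase, and Lrrc49 is a subunit of the complex that adds glutamate chains to tubulin.

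MiR-155 binds messages through the seed of its mature strand and usually lowers them. The mature mouse sequence is shown so that the search for its seed match can be followed, with the seed (bases 2 to 8) in capitals. It is the RefSeq entry of build GRCm38.p6, at chr16:84714143-84714165 on the plus strand.
mmu-miR-155-5p: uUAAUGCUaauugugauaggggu
The DNA match to this seed, AGCATTA, was searched on the sense strand of the annotated 3′ UTRs (GENCODE M21). None of the 9 genes held it, over longest 3′ UTRs of 212 bases in Akr1c12 to 3877 bases in Parm1. Among the genes tested in NK1.1- cells that have an annotated 3′ UTR, 1136 of 11610 (9.78%) held it.

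Start site windows, 250 bases before to 50 after the RefSeq start in build GRCm38.p6, were at hand for 6 of the 9 genes, with 2 windows for Lrrc49. The windows of Fabp7, Moxd1 and Pla2g7 are printed because the levels of these 3 genes ran close together over the 12 libraries. Capitals mark the E-box letters CANNTG, which read the same on both strands. The Fabp7 window is chr10:57784673-57784972, that of Moxd1 is chr10:24223267-24223566 and that of Pla2g7 is chr17:43568201-43568500, all on the plus strand.
Fabp7: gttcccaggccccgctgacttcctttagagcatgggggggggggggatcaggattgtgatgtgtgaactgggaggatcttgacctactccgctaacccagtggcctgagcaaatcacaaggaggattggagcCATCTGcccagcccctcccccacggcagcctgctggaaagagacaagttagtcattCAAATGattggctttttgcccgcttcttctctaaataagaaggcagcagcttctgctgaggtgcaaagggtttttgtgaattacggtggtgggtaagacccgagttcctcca
Moxd1: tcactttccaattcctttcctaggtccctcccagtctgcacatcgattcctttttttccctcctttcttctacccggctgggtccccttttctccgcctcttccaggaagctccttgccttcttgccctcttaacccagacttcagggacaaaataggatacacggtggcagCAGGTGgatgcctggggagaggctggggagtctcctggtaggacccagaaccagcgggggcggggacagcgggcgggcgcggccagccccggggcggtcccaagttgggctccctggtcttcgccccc
Pla2g7: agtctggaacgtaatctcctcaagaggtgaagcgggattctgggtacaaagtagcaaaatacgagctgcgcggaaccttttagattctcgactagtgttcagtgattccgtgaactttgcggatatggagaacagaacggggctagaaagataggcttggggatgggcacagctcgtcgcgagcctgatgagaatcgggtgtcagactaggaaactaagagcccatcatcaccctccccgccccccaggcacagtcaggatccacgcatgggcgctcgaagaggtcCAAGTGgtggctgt
E-box letters were in the windows of 5 of the 6 genes, all but Lrrc49, and in 72.3% of all 32851 windows of this length. The other letters were searched on both strands, and no searched motif contains another. The AP-1 letters TGANTCA were in none of the 7 windows and in 7.81% of all windows. The GATA letters AGATAA were likewise absent and in 11.2% of all windows, the TCF/LEF letters CTTTGA absent and in 16.0%, and the RUNX letters TGTGGT absent and in 16.8%. Only the NFAT letters GGAAAA were found, in the windows of Lrrc49 and Moxd1 and in 23.4% of all windows.

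The knock-in was visible in every library. Mir155hg, the host transcript of miR-155, was at 144, 137 and 132 TMM-scaled CPM (counts scaled to a common library size, CPM from here on) in miR-155KI NK1.1- libraries, against 13.0, 13.7 and 9.65 CPM in WT. The NK1.1+ libraries held 116, 128 and 95.2 CPM in miR-155KI, against 12.1, 11.7 and 11.2 CPM in WT. The genotypes did not overlap, and both differences passed the edgeR quasi-likelihood test over all genes with Benjamini-Hochberg adjustment (log2 fold change 3.49, adjusted p = 8.28e-08 in NK1.1- cells; 3.26, adjusted p = 3.3e-05 in NK1.1+ cells). The libraries also differed in Xist and Ddx3y: Xist was at 8.19 to 35.0 CPM in the 6 miR-155KI libraries, and at 11.4 and 12.6 CPM in WT replicate 1 but 135 to 237 CPM in the remaining 4 WT libraries (replicates 2 and 3), with Ddx3y the other way round. By these genes, female and male libraries were unevenly spread over the genotypes, and values against WT replicate 1 alone are given where they matter.

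Of the 9 genes, 8 had their lowest mean in an NK1.1+ group and all 9 had their highest in miR-155KI NK1.1- cells. Summed over the 9 genes, the level was 416, 381 and 324 CPM in miR-155KI NK1.1- libraries against 62.7, 54.3 and 59.6 CPM in WT NK1.1- libraries. In NK1.1+ cells the sum was 71.2, 31.9 and 46.7 CPM in miR-155KI against 32.7, 29.6 and 21.4 CPM in WT. In bulk RNA, more cells that express a gene and more RNA per cell cannot be told apart.

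**Figure D1:**
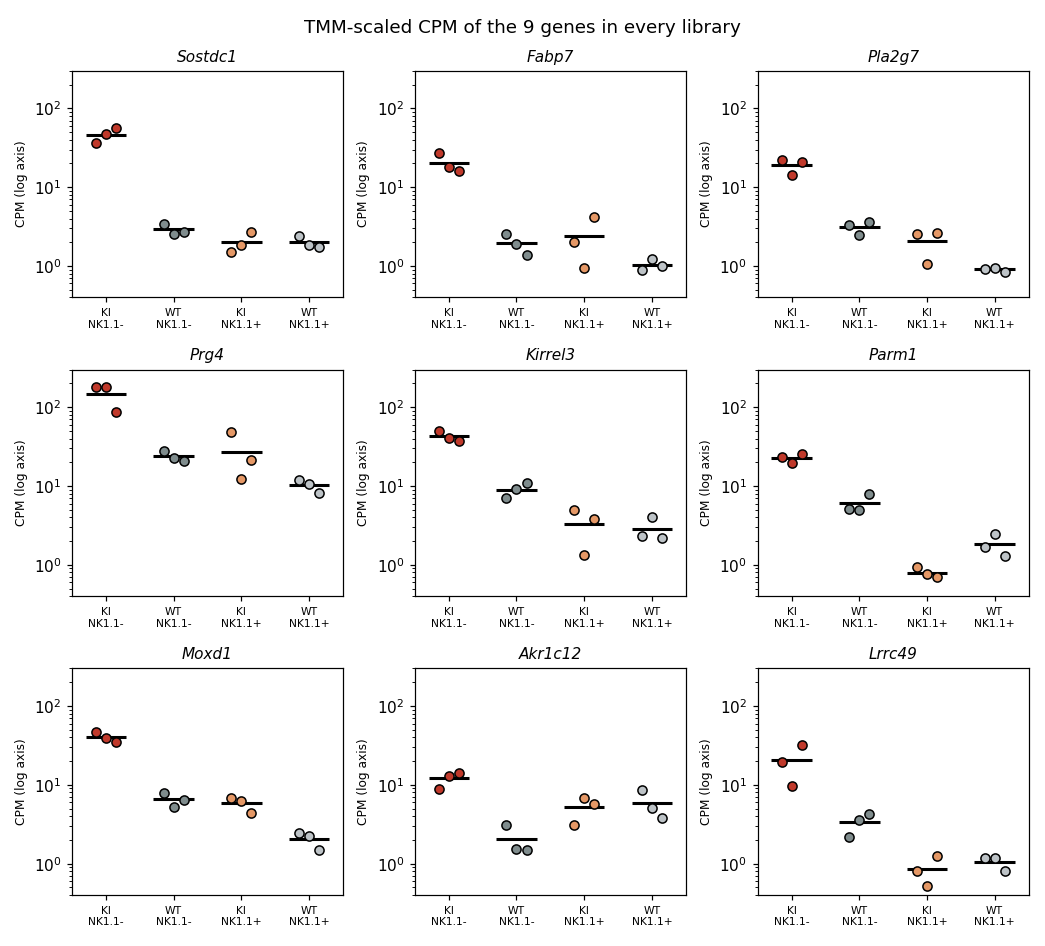
Each panel plots 1 gene, with TMM-scaled CPM on a log axis for the 3 libraries (points) and their mean (line) of miR-155KI (KI) and WT, NK1.1- and then NK1.1+. In all 9 panels the 3 miR-155KI NK1.1- libraries sit above every WT NK1.1- library, and in 5 panels the NK1.1+ genotypes overlap.

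Among the secreted proteins, Sostdc1 showed the widest gap. It was at 36.4, 46.6 and 56.7 CPM in miR-155KI NK1.1- libraries and at 3.42, 2.57 and 2.73 CPM in WT NK1.1- libraries. In NK1.1+ cells it was at 1.53, 1.87 and 2.71 CPM in miR-155KI and at 2.38, 1.87 and 1.75 CPM in WT. The lowest miR-155KI NK1.1- library was 10.6 times the highest WT one, whereas the NK1.1+ genotypes overlapped and their means of 2.04 ± 0.61 and 2.00 ± 0.33 CPM (SD, n = 3 each) differed by less than their spread. Sostdc1 (ENSMUSG00000036169.6) lies at chr12:36314139-36318452 on the plus strand.

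Prg4 was the most abundant of the 9 genes. It was at 181, 180 and 85.8 CPM in miR-155KI NK1.1- libraries, against 27.9, 22.9 and 20.9 CPM in WT. Among NK1.1+ libraries the level was 48.6, 12.3 and 21.3 CPM in miR-155KI, against 12.1, 10.6 and 8.21 CPM in WT. Replicate 3 stood below the other miR-155KI NK1.1- libraries, and replicate 1 stood above the other miR-155KI NK1.1+ libraries, where the lowest was just over the highest WT value. Prg4 (ENSMUSG00000006014.16, chr1:150449412-150466165, minus strand) shares 204 of its 4280 exonic bases with Tpr on the opposite strand. Whether reads were counted by strand is not stated, so reads there are of uncertain origin. Tpr itself averaged 257 CPM in NK1.1- cells of miR-155KI mice and 214 CPM in those of WT (log2 fold change 0.24, adjusted p = 0.281, edgeR).

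Pla2g7 was at 22.2, 14.3 and 20.9 CPM in miR-155KI NK1.1- libraries, against 3.35, 2.46 and 3.63 CPM in WT. It was at 2.52, 1.05 and 2.65 CPM in miR-155KI NK1.1+ libraries, against 0.930, 0.934 and 0.851 CPM in WT. The genotypes were apart in both pools, by far more in NK1.1- cells. In NK1.1+ cells the gap was narrow, with 18 counts in the lowest miR-155KI library and 16 to 18 per WT library. It did not pass the test there (adjusted p = 0.566, edgeR). The gene (ENSMUSG00000023913.17, chr17:43568098-43612201, plus strand) shares 319 of its 2905 exonic bases with the antisense transcript 1700071M16Rik, which averaged 0.698 CPM in miR-155KI, against 0.268 CPM in WT NK1.1- libraries.

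Of the surface proteins, Kirrel3 was at 50.5, 41.2 and 37.3 CPM in miR-155KI NK1.1- libraries, against 6.98, 9.04 and 10.9 CPM in WT. Its NK1.1+ levels were 4.91, 1.35 and 3.79 CPM in miR-155KI and 2.32, 4.03 and 2.20 CPM in WT, so the genotypes overlapped there. Kirrel3 (ENSMUSG00000032036.15) covers chr9:34485894-35036716 on the plus strand, and its introns hold the antisense gene Kirrel3os, with no shared exonic base. Kirrel3os was at 33.1, 28.2 and 13.5 CPM in miR-155KI NK1.1- libraries and at 2.79, 5.38 and 5.08 CPM in WT. If strand was not used in the counting, reads from unspliced Kirrel3 and from Kirrel3os cannot be told apart. Kirrel3os was called in NK1.1- cells (log2 fold change 2.47, adjusted p = 0.00707, edgeR) but not without WT replicate 3 (adjusted p = 0.0549, edgeR). This call is only a description, because Kirrel3os lies within Kirrel3, which was chosen on these libraries. Kirrel3os was also picked out after its values were seen.

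Parm1 in miR-155KI lay above WT in the NK1.1- libraries and below WT in the NK1.1+ libraries. It was at 23.1, 19.6 and 25.4 CPM in miR-155KI NK1.1- libraries, against 5.17, 5.03 and 7.86 CPM in WT. Its NK1.1+ levels were 0.929, 0.761 and 0.694 CPM in miR-155KI, against 1.70, 2.45 and 1.30 CPM in WT. All miR-155KI libraries were thus above WT in NK1.1- cells and below WT in NK1.1+ cells, where the values rest on 11 to 14 counts per miR-155KI library and 26 to 42 per WT library. The NK1.1+ difference did not pass the test (adjusted p = 0.547, edgeR), and 8.34% of all genes lay wholly below WT there. Parm1 (ENSMUSG00000034981.9) lies at chr5:91517615-91626894 on the plus strand.

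Inside the cell, Fabp7 was at 27.3, 18.0 and 16.1 CPM in miR-155KI NK1.1- libraries, against 2.58, 1.89 and 1.39 CPM in WT. For NK1.1+ cells it was at 1.99, 0.936 and 4.23 CPM in miR-155KI and at 0.878, 1.23 and 1.00 CPM in WT, with overlap. Fabp7 (ENSMUSG00000019874.11) lies at chr10:57784881-57788450 on the plus strand.

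Moxd1, on the same chromosome at chr10:24223517-24302790 (ENSMUSG00000020000.7, plus strand), was at 46.5, 39.3 and 35.4 CPM in miR-155KI NK1.1- libraries, against 7.96, 5.26 and 6.36 CPM in WT. It was at 6.90, 6.26 and 4.42 CPM in miR-155KI NK1.1+ libraries, against 2.48, 2.28 and 1.50 CPM in WT. The genotypes were apart in both pools, and the miR-155KI NK1.1+ mean of 5.86 ± 1.29 CPM was near the WT NK1.1- mean of 6.53 ± 1.36 CPM (SD, n = 3 each).

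Akr1c12 had a WT pattern of its own among the 9 genes. It was at 8.96, 13.1 and 14.2 CPM in miR-155KI NK1.1- libraries, against 3.14, 1.54 and 1.51 CPM in WT. In NK1.1+ libraries it was at 3.12, 6.85 and 5.74 CPM in miR-155KI and at 8.73, 5.02 and 3.75 CPM in WT, with overlap. Its lowest mean was therefore in WT NK1.1- cells and not in NK1.1+ cells. Akr1c12 (ENSMUSG00000021211.4, chr13:4268176-4279433, minus strand) shares 96.2% of its 972 coding bases with Akr1c13, which lies nearby beyond Akr1c19, so how the counting split reads between them is uncertain.

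Lrrc49 varied most between the miR-155KI NK1.1- libraries. It was at 19.6, 9.63 and 32.2 CPM in miR-155KI NK1.1- libraries, against 2.16, 3.60 and 4.29 CPM in WT. In NK1.1+ libraries it was at 0.796, 0.527 and 1.26 CPM in miR-155KI and at 1.19, 1.17 and 0.801 CPM in WT, with overlap and only 9 to 23 counts per library. The coefficient of variation in miR-155KI NK1.1- libraries was 55.2%, above the 12.9% to 36.7% of the other 8 genes. Lrrc49 (ENSMUSG00000047766.15) lies at chr9:60568859-60688158 on the minus strand and shares 146 of its 6310 exonic bases with the opposite-strand transcript B930082K07Rik, which averaged 0.0422 CPM in miR-155KI, against 0.178 CPM in WT NK1.1- libraries.

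Per kilobase of exon, the mean level in miR-155KI NK1.1- cells was highest for Prg4 (34.8 CPM per kb) and Sostdc1 (26.2), followed by Fabp7 (16.4), Moxd1 (12.6), Akr1c12 (9.58), Kirrel3 (6.67), Pla2g7 (6.58), Parm1 (4.47) and Lrrc49 (3.25 CPM per kb). In WT NK1.1- cells Prg4 was also first, at 5.59 CPM per kb, and Lrrc49 last, at 0.532 CPM per kb, while Sostdc1, at 1.63 CPM per kb, came after Prg4, Moxd1 (2.04) and Akr1c12 (1.64 CPM per kb).

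The fitted log2 fold changes of miR-155KI over WT in NK1.1- cells, which chose the genes, were 3.98 ± 0.21 (SE) for Sostdc1 and 3.38 ± 0.31 for Fabp7. Another 5 genes lay close together, at 2.63 ± 0.32 for Prg4, 2.62 ± 0.19 for Moxd1, 2.59 ± 0.26 for Pla2g7, 2.58 ± 0.44 for Lrrc49 and 2.54 ± 0.34 for Akr1c12. Kirrel3 was at 2.24 ± 0.20 and Parm1 at 1.89 ± 0.22. All 9 are among the 257 of 13304 tested genes (1.93%) called higher in miR-155KI NK1.1- cells at an adjusted p under 0.05, and nothing is read from that count because it is what picked them. Libraries of the genotypes did not overlap, with miR-155KI above, for 13.2% of all tested genes.

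Ranked by fold change among the 257 genes called higher, the 9 genes took places 3 (Sostdc1), 7 (Fabp7), 12 to 16 (Prg4, Moxd1, Pla2g7, Lrrc49 and Akr1c12), 23 (Kirrel3) and 42 (Parm1). Another 33 called genes had a fold change at or above that of Parm1, but only 8 of them averaged at least 10 CPM in miR-155KI NK1.1- cells, Mir155hg, Arhgap24, Cxcr5 and Il21 among them. The 3 of the 33 with the largest fitted changes were low: Trav7-2, a T cell receptor segment, at 2.22, 1.58 and 2.84 CPM in miR-155KI and listed at 0 in all WT NK1.1- libraries, Myot at a mean of 1.42 CPM in miR-155KI, against 0.0609 CPM in WT, and Lrrtm1 at 5.09 and 0.358 CPM. The next called gene below Parm1 was Tceal3, at a log2 fold change of 1.82.

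The NK1.1- differences were also seen against WT replicate 1 alone, which like the miR-155KI libraries was low in Xist. WT replicate 1 stood apart in B cell markers, summed to 895 CPM, where the 3 miR-155KI libraries held 90.2 to 272 CPM and the other WT NK1.1- libraries 121 and 130 CPM. It also had the highest myeloid sum of the NK1.1- libraries. Against it the log2 fold changes were 3.77 for Sostdc1, 3.25 for Lrrc49, 2.99 for Fabp7, 2.63 for Kirrel3, 2.52 for Pla2g7, 2.42 for Prg4, 2.35 for Moxd1, 2.14 for Parm1 and 1.94 for Akr1c12. With each library left out in turn, the value of no gene fell below 1.79, which was that of Parm1. Nothing is read from this floor, because these fits use the libraries that chose the genes.

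In NK1.1+ cells, none of the 9 genes passed the test at an adjusted p under 0.05 (edgeR quasi-likelihood test, 12991 genes tested, all 9 genes among them), where 3 genes in all (0.0231%) passed. At an unadjusted p under 0.05, 2 of the 9 genes were higher in miR-155KI, against 5.24% of all genes tested. These were Prg4 (log2 fold change 1.40 ± 0.45 (SE), adjusted p = 0.293 by edgeR) and Moxd1 (1.47 ± 0.54, adjusted p = 0.329 by edgeR). Both depended on the tool or the fit: DESeq2 called Prg4 (adjusted p = 0.0299) and no other of the 9 genes, edgeR with no filter on low counts called Prg4 (adjusted p = 0.0057), and edgeR on all 12 libraries together called Moxd1 (adjusted p = 0.0466). Without miR-155KI replicate 1 the log2 fold change of Prg4 was 0.71 (adjusted p = 0.386, edgeR), so 1 library set much of it, and the common biological coefficient of variation was 0.369 in NK1.1+ against 0.211 in NK1.1- libraries.

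For the other 7 genes, the NK1.1+ log2 fold changes were 1.18 ± 0.77 (SE) for Fabp7, 1.18 ± 0.73 for Pla2g7, 0.22 ± 0.66 for Kirrel3, 0.01 ± 0.65 for Sostdc1, -0.17 ± 0.52 for Akr1c12, -0.30 ± 0.75 for Lrrc49 and -1.20 ± 0.72 for Parm1, with adjusted p from 0.547 to 0.996 (edgeR). These standard errors leave room for sizeable differences in either direction. Over the 9 genes the median was 0.22, against 0.02 over all genes tested. By library, miR-155KI lay wholly above WT for Prg4, Moxd1 and Pla2g7 (3 of 9 genes, against 8.46% of all genes) and wholly below for Parm1 (1 of 9, against 8.34%). The remaining 5 genes overlapped.

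**Figure D2:**
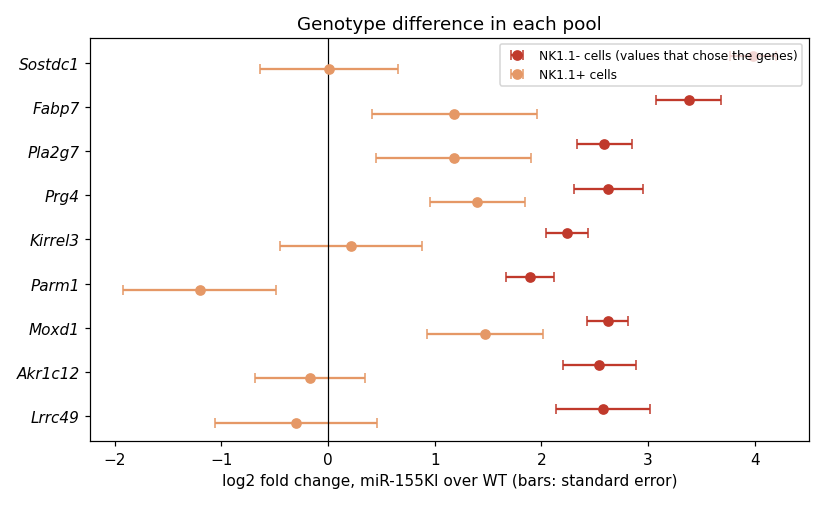
The log2 fold change of miR-155KI over WT from edgeR is plotted for each of the 9 genes, with its standard error, in NK1.1- cells (dark, the values that chose the genes) and NK1.1+ cells (light). The NK1.1- points run from 1.89 to 3.98, and the NK1.1+ points from -1.20 to 1.47.

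The summed markers of myeloid cells and of double-positive thymocytes were above WT in every miR-155KI NK1.1+ library. The summed level of the 12 macrophage and other myeloid markers was 373, 867 and 214 CPM in miR-155KI NK1.1+ libraries, against 41.2, 41.0 and 37.0 CPM in WT, and C1qa and C1qc passed the test there (log2 fold changes 4.19 and 4.30, adjusted p = 0.0286 each, edgeR). None of the 12 markers was at 0 throughout. Of the 3 miR-155KI NK1.1+ libraries, replicate 2, with the highest myeloid sum, had the highest Akr1c12, the lowest Prg4, Pla2g7, Fabp7, Kirrel3 and Lrrc49, and the middle value of Sostdc1, Moxd1 and Parm1. In NK1.1- libraries the sum was 73.7, 39.0 and 108 CPM in miR-155KI against 159, 48.0 and 40.2 CPM in WT, with overlap, and none of the 8 tested markers passed. The 8 markers of double-positive thymocytes, the precursors of iNKT cells, summed to 293, 45.1 and 94.7 CPM in miR-155KI NK1.1+ libraries, against 42.7, 32.5 and 44.7 CPM in WT, with a median log2 fold change of 2.37, and none of the 7 tested passed (edgeR). Replicate 1, with the highest of these sums, also had the highest Prg4, Moxd1, Kirrel3 and Parm1 of the miR-155KI NK1.1+ libraries, the lowest Sostdc1 and Akr1c12, and the middle value of Pla2g7, Fabp7 and Lrrc49. The part of these other cells in the NK1.1+ values was not tested. In NK1.1- libraries the double-positive markers overlapped, at 57.5 to 80.2 CPM in miR-155KI, against 40.8 to 91.8 CPM in WT. Glial and neural markers, of which Fabp7 is often one, summed to 1.58 to 2.09 CPM in miR-155KI, against 1.28 to 3.07 CPM in WT NK1.1- libraries, without Fabp7, and their only tested gene did not pass.

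Markers of iNKT subsets and of follicular helper T cells also moved in the NK1.1- pool. These lists were chosen with earlier results of the data known, so their counts are only a description. Markers of iNKT17 cells summed to 51.9 to 75.6 CPM in miR-155KI, against 180 to 286 CPM in WT NK1.1- libraries. At an adjusted p under 0.05, 10 of 11 of them were lower, as were 5 of 7 genes that follow NK1.1 (edgeR, against 1.5% of all genes called lower). Genes of follicular helper T cells, which help B cells in germinal centers, summed to 2090 to 2240 CPM in miR-155KI against 1190 to 1460 CPM in WT. Higher were 8 of 9 tested genes (edgeR, against 1.93% of all genes called higher), as were 4 of 10 iNKT2 genes (Il17rb, Slamf6, Pdcd1 and Icos, of which Pdcd1 and Icos are also among the 8). Of the 8, Pdcd1, Il21, Tox2 and Cxcr5 passed with every library left out in turn, and Bcl6, Icos, Sh2d1a and Btla did not. Genes of the earliest iNKT stages (0 and 1) summed to 1760 to 2130 CPM in miR-155KI, against 1290 to 1620 CPM in WT, with 4 of 11 higher (Egr2, Lef1, Id3 and Bcl6, the last also a follicular helper gene) and a median log2 fold change of -0.01. Genes of gamma delta T cells summed to 801 to 1120 CPM in miR-155KI, against 447 to 698 CPM in WT, with 2 of 6 tested genes higher, Tcrg-C4 and Trgv2. What part these shifts had in the levels of the 9 genes was not tested. As for the labelled cell type, Trav11 and Traj18, the segments of the invariant T cell receptor chain, averaged 273 ± 12 and 41.2 ± 2.0 CPM in miR-155KI, against 245 ± 15 and 35.0 ± 1.5 CPM in WT NK1.1- libraries, and Zbtb16, the transcription factor PLZF of iNKT cells, 538 ± 101 CPM, against 462 ± 33 CPM (SD, n = 3 each). None of the 3 passed the test.

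Within each genotype, the 9 genes also differed between the pools, given here as a description because the NK1.1- libraries chose them. In miR-155KI mice all 9 genes were lower in every NK1.1+ than in every NK1.1- library, a pattern shown by 16.5% of the 14401 genes in the fit of all 12 libraries. In WT mice 8 of the 9 were, where 18.1% of genes were, and Akr1c12 alone ran the other way. The log2 fold changes of NK1.1+ over NK1.1- cells in miR-155KI were -4.82 for Parm1, -4.57 for Lrrc49, -4.51 for Sostdc1, -3.69 for Kirrel3, -3.20 for Pla2g7, -3.10 for Fabp7, -2.79 for Moxd1, -2.44 for Prg4 and -1.20 for Akr1c12. In WT they were between -1.79 and -1.21 for Pla2g7, Parm1, Lrrc49, Kirrel3, Moxd1 and Prg4, -0.91 for Fabp7, -0.54 for Sostdc1 and 1.50 for Akr1c12. The medians over the 9 genes were -3.20 in miR-155KI and -1.64 in WT, against 0.03 over all genes in both genotypes.

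**Figure D3:**
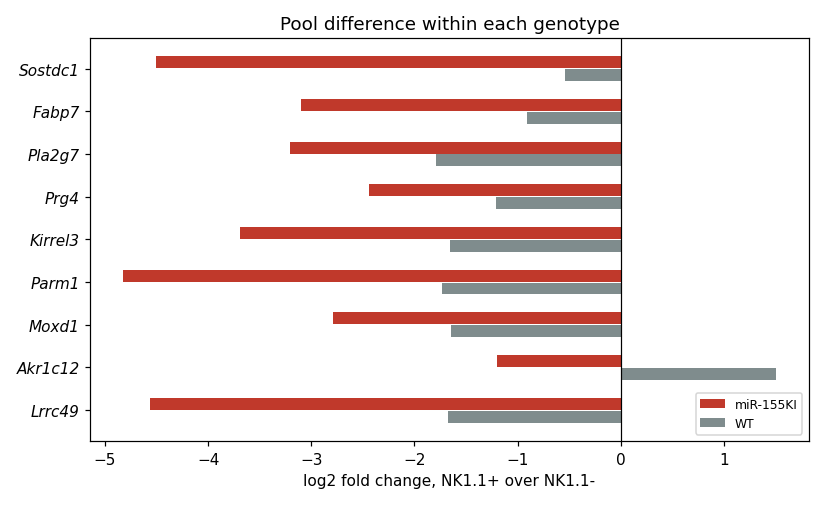
Bars give the log2 fold change of NK1.1+ over NK1.1- cells for each of the 9 genes within miR-155KI (red) and within WT (grey), from the fit of all 12 libraries. The bars point to lower levels in NK1.1+ cells for all genes and both genotypes except Akr1c12 in WT, at 1.50.

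The profiles over the 12 libraries were alike for 8 of the 9 genes. Pearson's r between pairs of genes, on log2(CPM + 1), had a median of 0.911 over 36 pairs and was highest for Pla2g7 with Moxd1 (0.965), and the 8 lowest values, from 0.38 to 0.709, were all pairs with Akr1c12. These points share libraries, depth and the group differences that chose the genes, so the values only describe likeness. Among 11049 other named genes averaging 1 CPM or more, the 10 most like the mean profile were Grik4 (0.975), Npas4 (0.972), Lrrtm1 (0.971), Arhgap24 (0.959), Sh3bp2 (0.958), Syt11 (0.951), Il21 (0.944), Mlec (0.943), Cxcr5 (0.939) and Samhd1 (0.938).

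Of these, Grik4 is a glutamate receptor subunit and Lrrtm1 a synaptic adhesion protein, both known from neurons, and Npas4 is an activity-induced transcription factor. Il21 encodes a cytokine and Cxcr5 a chemokine receptor of follicular helper T cells. Il21 was at 18.5, 19.3 and 18.1 CPM in miR-155KI NK1.1- libraries, against 5.65, 4.23 and 3.40 CPM in WT, and Cxcr5 was at 50.3, 43.6 and 26.5 CPM, against 13.2, 9.67 and 7.98 CPM. Both were low in NK1.1+ libraries, where Il21 averaged 1.19 CPM in miR-155KI, against 1.16 CPM in WT, and Cxcr5 2.90 and 2.61 CPM. The single gene most like each member was Lrrtm1 for Sostdc1 (0.982) and Fabp7 (0.969), Npas4 for Pla2g7 and Lrrc49 (0.968 each), Syt11 for Prg4 (0.968), Arhgap24 for Moxd1 (0.966), Grik4 for Kirrel3 (0.977), Csf1 for Parm1 (0.984) and Add1 for Akr1c12 (0.891).

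Genes of the pathways around the 9 proteins mostly did not pass the test. Of 150 listed genes, without the 9 themselves, 87 were tested in NK1.1- cells, and 5 were higher and 3 lower in miR-155KI (8 of 87, against 3.44% of all genes), with a median log2 fold change of -0.02 and of -0.00 over all genes. In NK1.1+ cells 0 of 85 passed with edgeR, and 17 had an unadjusted p under 0.05, against 1539 of all 12991 genes tested. DESeq2, without the low-count filter, called 3 higher and 3 lower of 146 list genes, against 316 of all 27581 genes. The NK1.1- count was not steady: leaving out 1 library gave 1 to 6 higher and 0 to 4 lower genes, lowest without miR-155KI replicate 1 and highest without WT replicate 1. In the fit of all 12 libraries, 1 was higher and 1 lower of 92 list genes tested.

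Lpcat2, which makes platelet-activating factor, had the lowest adjusted p of these. It was at 11.2, 14.8 and 8.67 CPM in miR-155KI NK1.1- libraries, against 4.54, 2.92 and 3.40 CPM in WT (log2 fold change 1.66 ± 0.29, adjusted p = 0.0066, edgeR), and passed with each library left out (adjusted p up to 0.0492), but not against WT replicate 1 alone (adjusted p = 0.192). The NK1.1+ values were 15.1, 16.2 and 21.2 CPM in miR-155KI, against 6.77, 4.32 and 6.86 CPM in WT (1.53 ± 0.34, adjusted p = 0.201, edgeR). Of 17 alternatives, 3 called Lpcat2 there: DESeq2 (adjusted p = 0.000636), edgeR with no low-count filter (0.019) and edgeR on all 12 libraries (0.0486). Pla2g7, which inactivates platelet-activating factor, was chosen for its rise in the NK1.1- libraries, so nothing is read from Lpcat2 and Pla2g7 being higher together. In NK1.1- cells the other 10 tested genes of this list did not pass, Pla2g16 (114 CPM in miR-155KI, against 109 CPM in WT) and Pafah1b2 (87.3 and 91.3 CPM) being the most abundant.

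Of 23 tested BMP and Wnt genes, the setting of Sostdc1, 2 were higher, 2 lower and 19 did not pass, with a median of -0.30. Lef1, a Wnt pathway transcription factor, averaged 800 ± 107 CPM in miR-155KI, against 528 ± 60 CPM in WT NK1.1- cells (log2 fold change 0.58, adjusted p = 0.0175, edgeR), and Id3, a BMP-responsive inhibitor of E proteins, 526 ± 55 and 362 ± 68 CPM (0.53, adjusted p = 0.0496; SD, n = 3 each). Bmp7, a BMP ligand, fell to 34.9 ± 6.2 CPM in miR-155KI, against 58.0 ± 9.8 CPM in WT (-0.76, adjusted p = 0.0316), and Smad7, an inhibitor of the pathway, to 12.0 ± 2.1 CPM, against 25.0 ± 8.7 CPM (-1.09, adjusted p = 0.0457; edgeR, SD, n = 3 each). Each of these 4 calls was lost without at least 1 library: Lef1 without WT replicate 2, miR-155KI replicate 1 or 3, Bmp7 without WT replicate 2 or 3 or miR-155KI replicate 1 or 3, and Id3 and Smad7 without any library but WT replicate 1.

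Akr1c13, nearly identical to Akr1c12 in its coding sequence, was at 29.5, 35.6 and 21.04 CPM in miR-155KI NK1.1- libraries, against 15.6, 14.1 and 10.7 CPM in WT (log2 fold change 1.07 ± 0.22, adjusted p = 0.0171, edgeR). It kept its call without WT replicate 1 or miR-155KI replicate 3 only, with adjusted p up to 0.0861 without another library. In NK1.1+ libraries it was at 35.8, 55.9 and 36.2 CPM in miR-155KI and at 39.8, 24.5 and 21.2 CPM in WT, with overlap. Akr1c18, which inactivates progesterone in mice, was at 95.0, 54.3 and 250 CPM in miR-155KI NK1.1- libraries, against 41.4, 21.1 and 24.8 CPM in WT, apart but not past the test (2.18 ± 0.71, adjusted p = 0.233, edgeR). It passed in 4 of 17 alternatives: DESeq2 (adjusted p = 0.0248), edgeR that was not robust (0.0334) and limma on log2(CPM + 1) or log2(CPM + 0.1) (0.0279 and 0.0309). Akr1c13 was the only 1 of 7 tested aldo-keto reductases to pass.

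**Figure D4:**
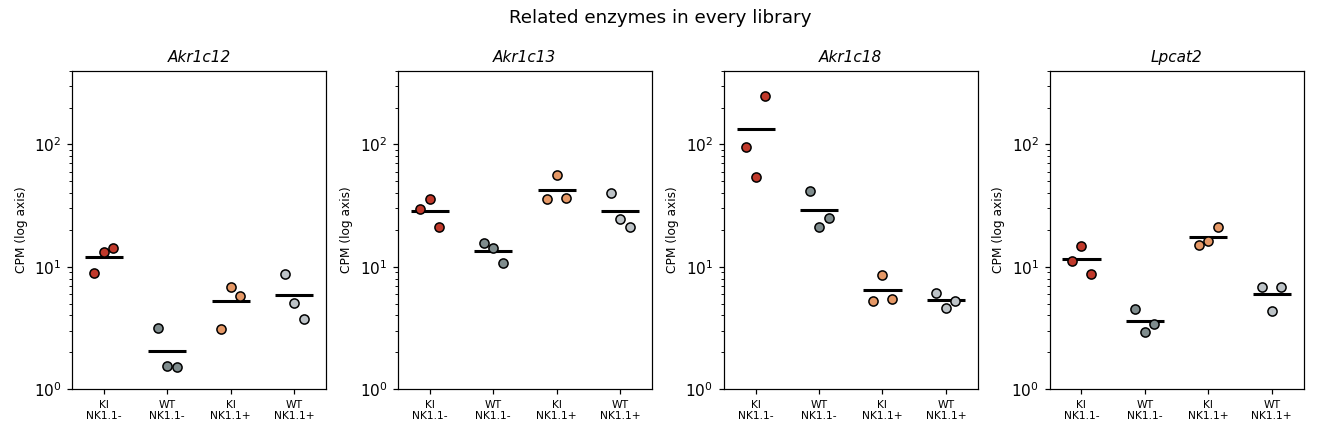
TMM-scaled CPM on a log axis are plotted for Akr1c12, Akr1c13, Akr1c18 and Lpcat2 in the 3 libraries (points, with mean) of miR-155KI (KI) and WT, NK1.1- and then NK1.1+. Akr1c18 spreads from 54.3 to 250 CPM over the miR-155KI NK1.1- libraries, and Lpcat2 is above WT in every miR-155KI library of both pools.

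In the remaining lists, Spock2, a proteoglycan, was higher in miR-155KI NK1.1- cells (17.7 ± 4.2 CPM, against 8.24 ± 2.42 CPM in WT, adjusted p = 0.0396), 1 of 9 tested proteoglycan and matrix genes, and Ccs, the copper chaperone of superoxide dismutase, was lower (52.1 ± 3.3 CPM, against 73.3 ± 7.5 CPM, adjusted p = 0.0339; edgeR, SD, n = 3 each), 1 of 10 copper genes. Spock2 lost its call without WT replicate 1 or 3 or miR-155KI replicate 1 or 3, and Ccs without any library but WT replicate 1. Ddc, which makes dopamine and is in the copper list, had the largest change of that list and missed the threshold, at 26.1, 10.2 and 25.2 CPM in miR-155KI NK1.1- libraries, against 7.82, 2.80 and 5.97 CPM in WT (log2 fold change 1.89 ± 0.45 (SE), adjusted p = 0.0649, edgeR). The genotypes were apart, and 9 of 17 alternatives called it, as many as called Spock2. None passed of 6 fatty acid and lipid receptor genes (Cpt1a at 54.8 CPM in miR-155KI, against 58.4 CPM in WT, Fabp5 at 48.8 and 63.5 CPM), 7 Kirrel and nephrin adhesion genes (Nck1 at 41.3 and 44.4 CPM, Fyn at 50.6 and 48.4 CPM), 10 tubulin glutamylation genes (Tpgs1 at 49.0 and 52.9 CPM, Agtpbp1 at 22.8 and 20.1 CPM) and 4 mucin-like membrane genes (Selplg at 667 and 762 CPM, Cd164 at 309 and 293 CPM). At an unadjusted p under 0.05, 24 of the 87 genes differed in NK1.1- cells, against 2457 of all 13304 genes tested (edgeR).

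The genes beside the 9 on their chromosomes were mostly low or did not pass the test. Of the 18 nearest protein-coding neighbours, 10 were tested in NK1.1- cells and 1 passed, with log2 fold changes of -0.31 to 1.30 and a median of 0.50. Smpdl3a, 5885 bases beyond Fabp7, was at 344, 375 and 354 CPM in miR-155KI, against 279, 224 and 223 CPM in WT NK1.1- libraries (0.55, adjusted p = 0.016, edgeR), a call lost without any library but WT replicate 1. In NK1.1+ cells 7 neighbours were tested and 0 passed, with log2 fold changes of -0.40 to 0.59. The largest change was that of Thsd4, beside Lrrc49, at 8.86, 4.96 and 8.24 CPM in miR-155KI NK1.1- libraries, against 1.12, 4.35 and 3.29 CPM in WT, with the genotypes apart (1.30 ± 0.44 (SE), adjusted p = 0.132, edgeR). It passed with DESeq2 (adjusted p = 0.0313), with no low-count filter (0.00481) and against WT replicate 1 alone (0.0443). The other tested neighbours were Larp6 beside Lrrc49 (log2 fold change 0.96), D630036H23Rik beside Sostdc1 (0.96), Btc (0.93) and Rchy1 (0.02) beside Parm1, Stx7 beside Moxd1 (0.44), Pkib beside Fabp7 (-0.02), and St3gal4 (-0.07) and Ets1 (-0.31) beside Kirrel3, with adjusted p from 0.124 to 0.988 (edgeR).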

How the data were processed

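Raw counts per gene of 12 RNA-seq libraries, deposited by the authors, were analysed, together with the deposited CPM table, a signal that equals each count times a single factor per library (columns sum to 899833 to 1091959). Per the labels, bcl2fastq 2.17.1.14 split the reads by library and the genome was GRCm38 (mm10); aligner, counter and strand setting: not given in the sources used here. As for the kit, the labels name SMART-Seq v4 and the study's methods TruSeq. Of 48709 gene names, 46344 matched GENCODE M21, and 27 had become dates (0.249% of counts).

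Each pool was fitted separately with edgeR 4.0.16 (R 4.3.3): filterByExpr, TMM scaling, robust quasi-likelihood test, Benjamini-Hochberg adjustment over all genes, threshold 0.05. The test was tried on simulated data. Fold changes between pools came from 1 fit of all 12 libraries. Alternatives used DESeq2 1.42.0, limma 3.58.1 (voom, or log2 of the deposited signal plus 1 or 0.1), RLE factors, no filter, at least 10 counts in every library, a fit that was not robust, a replicate block, each library left out in turn, and WT replicate 1 as the only control. Figures were drawn with matplotlib 3.10.9. The 9 genes, the pathway lists and the markers were chosen with earlier results of these data known. The text names all 9 genes, pathway genes past the threshold or the 2 most abundant, the 10 genes of most similar profile and the tested nearest protein-coding neighbours; the other cell type, Akr1c18, Ddc and Kirrel3os values were picked out after the values were seen.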

Additional observations from a re-analysis of the deposited data

Results flagged for a closer look

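Parm1 was higher in every miR-155KI than in every WT library in NK1.1- cells and lower in every miR-155KI than in every WT library in NK1.1+ cells. The genotype effect in NK1.1+ cells minus that in NK1.1- cells was -3.10 on the log2 scale in the fit of all 12 libraries. The difference was not tested, because the NK1.1- libraries chose the gene, and the NK1.1+ values rest on 11 to 42 counts per library. Such a difference was negative for all 9 genes, with a median of -2.19, against 0.01 over all genes. Genes chosen for a large NK1.1- rise tend to give a negative value, so nothing is read from that count. For Sostdc1 the difference was larger in size than for Parm1 (-3.97). In NK1.1+ cells alone Parm1 did not pass the test (adjusted p = 0.547, edgeR), and 8.34% of all genes lay wholly below WT there. Groups of 3 libraries are too small for a test of single outlying libraries.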

How the results depend on the processing

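In NK1.1- cells 457 genes passed with the settings described, and 953 with DESeq2, 1048 with no low-count filter, 737 with a replicate block, 139 with all 12 libraries in 1 fit, 157 against WT replicate 1 alone and 186 to 917 with 1 library left out, lowest without miR-155KI replicate 1 and highest without WT replicate 1. In NK1.1+ cells 3 genes passed, and 316 with DESeq2, 282 with no filter, 1 with limma-voom, 7 with a replicate block, 60 with all 12 libraries in 1 fit, 1 against WT replicate 1 alone and 1 to 125 with 1 library left out, highest without WT replicate 1. Of the 9 genes, 0 passed in NK1.1+ cells, 1 with DESeq2, 1 with no filter and 1 with all 12 libraries, and 0 to 0 with 1 library left out or with a replicate block. The causes were not tested, beyond the fewer libraries or other genes that each setting uses. In NK1.1- cells the alternatives refit the libraries that chose the 9 genes, so nothing is read from all 153 log2 fold changes being positive. Of these 153 values, 148 moved by less than the spread between replicates. Those that moved further were Sostdc1 (3.62) and Fabp7 (2.88) on log2(CPM + 1), and Moxd1 (2.35), Kirrel3 (2.63) and Akr1c12 (1.94) against WT replicate 1. In NK1.1+ cells 149 of 152 alternatives left the 9 genes on the same side of the threshold. The replicate numbers were not taken as pairs, since same-numbered miR-155KI and WT libraries deviated together only weakly (r of 0.0559, 0.116 and 0.0816 in NK1.1- and -0.0743, -0.00749 and 0.00216 in NK1.1+ cells), although in NK1.1- cells each library was most like its own number. Same-numbered NK1.1+ and NK1.1- libraries had r of 0.293, 0.243 and 0.0988 in WT and 0.117, 0.0689 and 0.0611 in miR-155KI. The labels do not say whether both pools came from the same animals. The fit of all 12 libraries treated them as independent, so a pairing between pools was not taken into account there. Lrrc49, Parm1 and Pla2g7 at 9 to 42 counts per NK1.1+ library leave differences there poorly resolved.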
